A study of Mus musculus with 12 samples.

Results

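The genes described here are the fatty acid elongases Elovl1, Elovl2, Elovl3, Elovl5 and Elovl6 and the desaturases Fads1, Fads2 and Fads3. Each was found by its symbol in the deposited table of FPKM (a count of fragments scaled by gene length and by sequencing depth, so that levels of different genes can be compared), and the 8 genes are 8 of the table's 35275 rows. RNA of mouse samples given as liver was sequenced in 4 groups of 3 libraries, which the series calls biological replicates without saying whether each is a separate animal. WTVC is wild-type on vivarium chow, WTHF is wild-type on a high fat diet, KOVC is Hnf4a liver knockout on vivarium chow and KOHF is Hnf4a liver knockout on a high fat diet. The sources used here do not give the strain, sex, age, length of feeding, floxed allele or Cre driver of the mice.

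Long fatty acids are made in the endoplasmic reticulum by a cycle that adds a carbon pair from malonyl-CoA, and the ELOVL enzymes carry out its first, condensing reaction, which sets the chain length and saturation that each accepts. Front-end desaturases add a double bond between an existing one and the carboxyl end. In liver, FADS2, ELOVL5, FADS1 and ELOVL2 act in turn to turn dietary linoleic and alpha-linolenic acid into arachidonic acid and docosahexaenoic acid (DHA), while ELOVL6 lengthens palmitate made by fatty acid synthase. Several of these genes are textbook targets of SREBP-1c, a transcription factor of lipid synthesis, and of PPAR alpha, a fatty acid sensor.

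The libraries held between 15705196 and 20311766 reads assigned to genes. P-values here set a difference against the spread between these libraries, whatever its source. That spread is pooled over the groups in a fit, so a comparison also takes spread from groups outside it. The libraries labelled WTVC2 and WTVC3 stood apart. The summed level of 8 hepatocyte markers was 18.97 FPKM in WTVC3 and 23176 to 62648 FPKM in the others, and that of 8 adipocyte markers was 13084 FPKM in WTVC3, 127 FPKM in WTVC2 and 10.7 to 73.8 FPKM in the other 10. Hnf4a, the targeted gene, was not absent where the label says knockout: it held 129.9 to 158 FPKM in KOVC, 98.8 to 138 FPKM in KOHF and 116 to 133 FPKM in WTHF. WTVC1 to WTVC3 held 126, 75.8 and 0.0973 FPKM. The log2 difference of Hnf4a between KOHF and WTHF was −0.11 (limma adjusted p = 0.780 with 10 libraries). A whole-gene value does not measure a deleted exon, and the genotype names below are those of the labels. Because of WTVC2 and WTVC3, each test is given for all 12 libraries in 1 fit and for the 10 libraries without them, in which WTVC1 alone stands for wild type on chow with the spread taken from the other groups.

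**Figure D1:**
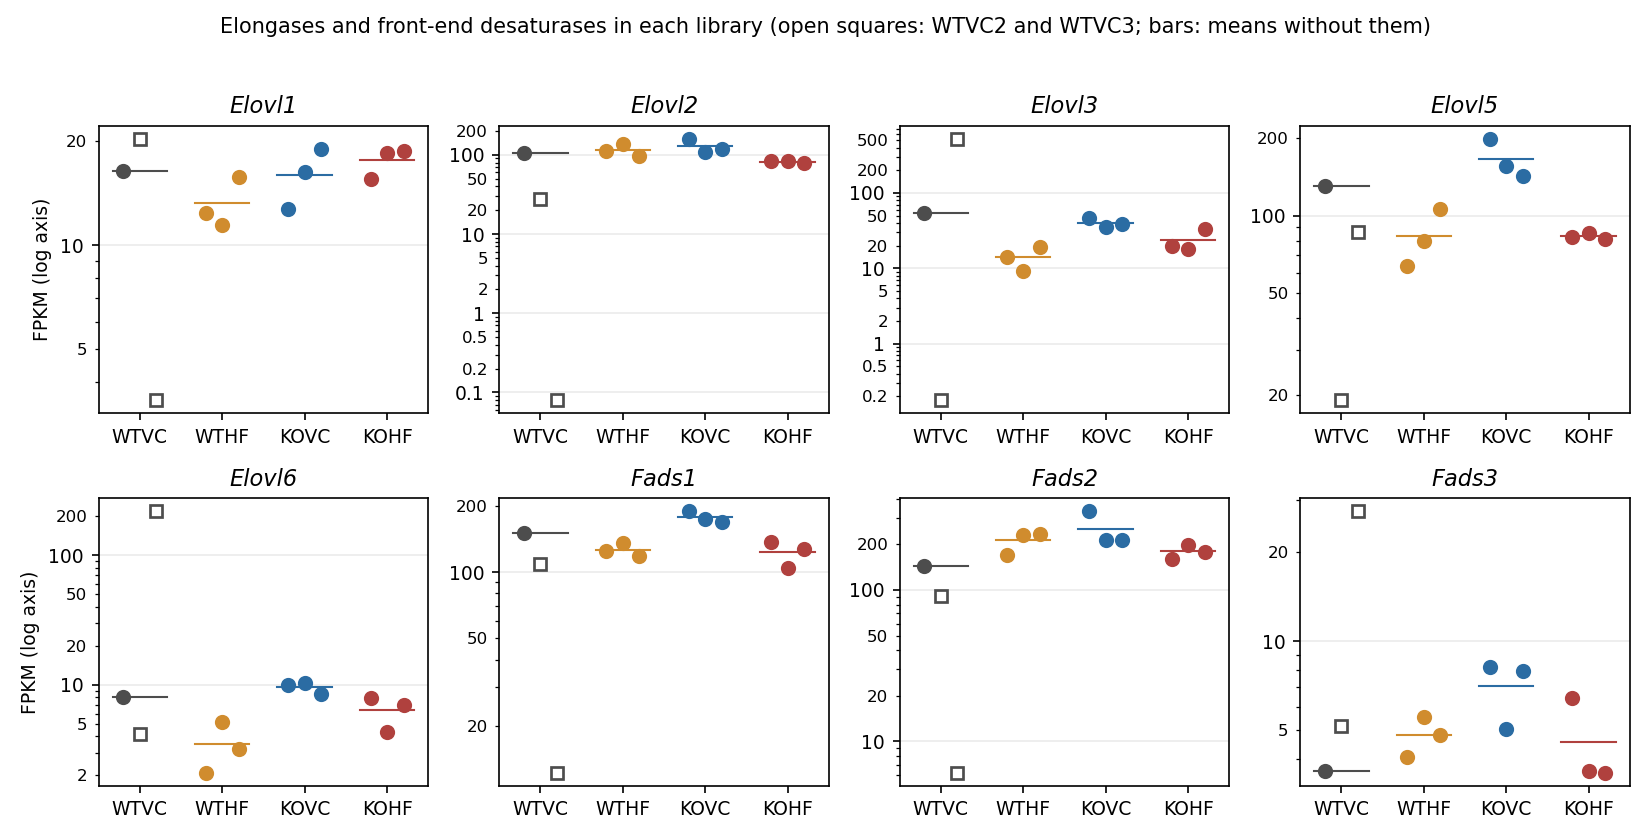
FPKM of the 8 genes in each library on a log axis, by group, with open squares for WTVC2 and WTVC3 and horizontal bars for the group means without them. Elovl5 lay between 81.5 and 85.4 FPKM in KOHF and between 142 and 199 FPKM in KOVC, and Elovl6 reached 219.9 FPKM in WTVC3.

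Per length, Fads2 had the highest level of the 8 in every library but the 3 of WTVC, with group means of 212 FPKM in WTHF, 253 FPKM in KOVC and 179.6 FPKM in KOHF, and its range lay above that of the next gene, Fads1, in each of these groups. Fads1, Elovl5 and Elovl2 followed, with means from 82.4 FPKM (Elovl2 in KOHF) to 178 FPKM (Fads1 in KOVC). Their neighbouring ranges overlapped except that Fads1 stood above Elovl5 in KOHF. The other 4 genes were lower. Elovl3 had group means of 14.1 to 40.1 FPKM in the same 3 groups, Elovl1 of 13.2 to 17.6 FPKM, Elovl6 of 3.48 to 9.56 FPKM and Fads3 of 4.56 to 7.08 FPKM. The 4 genes of the polyunsaturated pathway were thus the more abundant ones, and the step from them to Elovl3 had no overlap in any of the 3 groups. The place of Fads2 above Fads1 rests on the table's gene lengths, 1508 and 3456 bases. By reads Fads2 was the lower, with 4922 to 6209 in WTHF against 7202 to 8275 for Fads1. The 3′ end of Fads2 is at 10064164 in the deposited table and at 10062765 in the GENCODE M21 annotation. Its bearing on the order was not tested.

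Over the 10 libraries Elovl3 varied most, with its highest level 5.88 times its lowest, followed by Elovl6 at 4.91 times and Elovl5 at 3.12 times. Fads2, Fads3 and Elovl2 varied by 2.30, 2.28 and 2.04 times, Fads1 by 1.82 times and Elovl1 by 1.65 times. The fewest reads behind a value in these 10 libraries were 208, for Fads3 in KOHF3. In WTVC2 and WTVC3 single values rest on as few as 5 reads.

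In the fit of 10 libraries, high fat diet in the libraries labelled knockout gave the one difference of the family that passed the test. Elovl5, which lengthens the polyunsaturated products of FADS2, held 199, 156 and 142 FPKM in KOVC1 to KOVC3 and 82.5, 85.4 and 81.5 FPKM in KOHF1 to KOHF3. The KOHF libraries lay close together and all below the lowest KOVC library. The mean fell from 166 ± 29.9 to 83.1 ± 2.05 FPKM (SD, n = 3), which is 1.99 times lower. In the fit of 10 libraries the log2 difference was −0.97 (SE 0.20, 95% interval −1.42 to −0.53, limma adjusted p = 0.0339).

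That call depends on the libraries in the fit. With all 12 libraries the difference is equal but its SE is 0.57 (adjusted p = 0.686), and with the 6 KOVC and KOHF libraries alone the adjusted p was 0.0992. Over 14 alternatives to the 10-library fit the difference lay between −1.17 and −0.83 in all, and 6 kept it past the threshold, with adjusted p from 0.0167 to 0.142. It was lost without WTHF1 (adjusted p = 0.0569), WTHF2 (0.0647), KOVC1 (0.131), KOVC2 (0.142), KOHF1 (0.0642), KOHF2 (0.0530) or KOHF3 (0.0719) and with the replicate number as a block (0.0610).

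The Elovl5 gene (ENSMUSG00000032349) lies on the plus strand of chromosome 9 from 77917364 to 77984519 in the deposited table, on build GRCm38 (mm10). The promoter windows below show the bases around the start of 4 members whose KOHF libraries all lay below their KOVC libraries, Elovl5 first because its fall passed the test. They run from 250 bases before the start to 50 after it, 5′ to 3′ on the gene's strand, and come from RefSeq on GRCm38.p6, whose table holds 6 of the 8 members. Capitals mark matches on either strand to 5 short motifs: TCACNCCAC (an SREBP element), CCAAT (the NF-Y box), CACGTG (the E-box bound by basic helix-loop-helix factors), GGGCGG (the GC box bound by Sp1) and CAAAGTCCA (an HNF4A element).
Elovl5, chr9:77917115-77917414, plus strand: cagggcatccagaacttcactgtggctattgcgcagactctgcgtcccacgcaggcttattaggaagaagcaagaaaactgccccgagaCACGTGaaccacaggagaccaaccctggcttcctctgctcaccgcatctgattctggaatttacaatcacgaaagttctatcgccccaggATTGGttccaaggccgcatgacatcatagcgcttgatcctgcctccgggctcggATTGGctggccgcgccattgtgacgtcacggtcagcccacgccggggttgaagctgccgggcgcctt
Fads2, chr19:10101454-10101753, minus strand: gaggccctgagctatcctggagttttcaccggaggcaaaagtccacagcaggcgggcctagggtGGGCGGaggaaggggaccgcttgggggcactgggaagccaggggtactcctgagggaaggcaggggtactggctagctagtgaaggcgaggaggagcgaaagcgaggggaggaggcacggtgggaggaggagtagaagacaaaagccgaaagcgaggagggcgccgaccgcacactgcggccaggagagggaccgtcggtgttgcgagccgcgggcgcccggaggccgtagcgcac
Elovl2, chr13:41220354-41220653, minus strand: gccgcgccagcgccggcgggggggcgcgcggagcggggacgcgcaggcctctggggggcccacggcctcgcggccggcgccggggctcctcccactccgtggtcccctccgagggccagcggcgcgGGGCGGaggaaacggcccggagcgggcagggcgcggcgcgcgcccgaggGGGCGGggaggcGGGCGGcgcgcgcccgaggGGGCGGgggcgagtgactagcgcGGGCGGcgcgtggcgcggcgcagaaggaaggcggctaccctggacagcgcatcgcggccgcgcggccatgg
Elovl6, chr3:129532136-129532435, plus strand: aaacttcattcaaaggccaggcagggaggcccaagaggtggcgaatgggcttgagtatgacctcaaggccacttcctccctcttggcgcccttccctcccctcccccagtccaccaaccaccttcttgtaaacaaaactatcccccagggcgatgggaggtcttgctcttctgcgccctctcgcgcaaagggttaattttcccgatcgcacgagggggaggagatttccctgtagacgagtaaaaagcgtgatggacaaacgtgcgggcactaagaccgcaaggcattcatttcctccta

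Counted from 1 at the 5′ end of the window, Elovl5 held an E-box at base 90 and NF-Y boxes on the other strand at bases 180 and 234. Fads2 held a GC box at base 65, and the Elovl2 window shown held GC boxes at bases 127, 176, 188, 207 and 230. A further Elovl2 window, chr13:41220113-41220412, is not shown and held none of the 5 motifs. The Elovl6 window held none of the 5 motifs. Among all 32851 promoter windows of this length, 37.4% hold an NF-Y box, 35.7% a GC box, 7.15% an E-box, 1.24% the SREBP element and 0.475% the HNF4A element. Of the 8 windows that the table holds for members, 5 had a GC box, 3 an NF-Y box, 1 the E-box and 0 either of the last pair, which says only that these letters are not in these windows. A GC box and an NF-Y box share bases in the upstream Elovl1 window.

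The other genes of the polyunsaturated route were lower in KOHF than in KOVC without passing the test. Fads1, which makes arachidonic acid by the last desaturation of its route, held 189, 175 and 169 FPKM in KOVC1 to KOVC3 and 137, 104 and 128 FPKM in KOHF1 to KOHF3. All 3 KOHF values lay below the lowest KOVC value, and the log2 difference was −0.53 (SE 0.14, adjusted p = 0.0511 with 10 libraries). Elovl2, which lengthens the polyunsaturated chains on the way to DHA, held 160.0, 107 and 119 FPKM in KOVC and 83.9, 84.6 and 78.5 FPKM in KOHF. Again the groups did not overlap, and the log2 difference was −0.62 (SE 0.18, adjusted p = 0.0674). Fads2, the entry desaturase, held 331, 214 and 214 FPKM in KOVC and 161, 199 and 179 FPKM in KOHF. KOVC1 was the high library, and the log2 difference was −0.47 (SE 0.21, adjusted p = 0.177).

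Of the genes outside the polyunsaturated route, none passed the test. Elovl3, which is known from brown fat, skin and liver and makes very long saturated and monounsaturated chains, held 45.8, 35.3 and 39.2 FPKM in KOVC and 19.8, 17.8 and 32.8 FPKM in KOHF. KOHF3 came close to the lowest KOVC library, and the log2 difference was −0.79 (SE 0.28, adjusted p = 0.102 with 10 libraries). Elovl6, which lengthens palmitate to stearate, held 9.91, 10.3 and 8.48 FPKM in KOVC and 7.96, 4.29 and 7.02 FPKM in KOHF. These groups did not overlap either, with a log2 difference of −0.54 (SE 0.27, adjusted p = 0.215). Elovl1, which makes the saturated very long chains of sphingolipids, held 12.7, 16.3 and 18.95 FPKM in KOVC and 15.6, 18.5 and 18.8 FPKM in KOHF. Its groups overlapped, and the interval of the log2 difference was −0.25 to 0.54. Fads3, a desaturase of sphingoid bases, held 8.20, 5.08 and 7.97 FPKM in KOVC and 6.43, 3.65 and 3.60 FPKM in KOHF, with overlap and a log2 difference of −0.55 (SE 0.23, adjusted p = 0.153).

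Counted over the family, 1 of 8 genes fell from KOVC to KOHF in the 10-library fit and 0 rose, where 7.76% of all 12251 genes tested passed, 1.52% upward and 6.24% downward. The count over all genes, 951, changed with nearly every library: it was 31 without WTHF1, 30 without WTHF2, 113 without WTHF3, 18 without KOVC1, 17 without KOVC2, 1535 without KOVC3, 39 without KOHF1, 396 without KOHF2 and 88 without KOHF3. At an unadjusted p under 0.05 there were 5 of 8 members and 29.2% of all genes. For 6 of 8 (Elovl2, Elovl3, Elovl5, Elovl6, Fads1 and Fads2) all KOHF libraries lay below all KOVC libraries, as did 21.6% of all genes (9.98% lay above and 31.5% did not overlap either way). The median log2 difference of the 8 was −0.55, beside −0.06 over all genes. With all 12 libraries 0 of 8 members passed, by limma and by limma-voom and also at an unadjusted p under 0.05, where 0.155% of all genes passed the adjusted test and 7.54% the unadjusted one. Scaling bears on these counts: of all genes called in the 10-library fit 186 were higher and 765 lower, against 149 and 2082 after rescaling to TPM (FPKM rescaled to the same sum in every library) and 385 and 503 after median-of-ratios scaling. TPM moved the median of all genes to −0.23, and 4 members (Elovl2, Elovl3, Elovl5 and Fads1) passed on that scale, as did 18.2% of all genes.

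**Figure D2:**
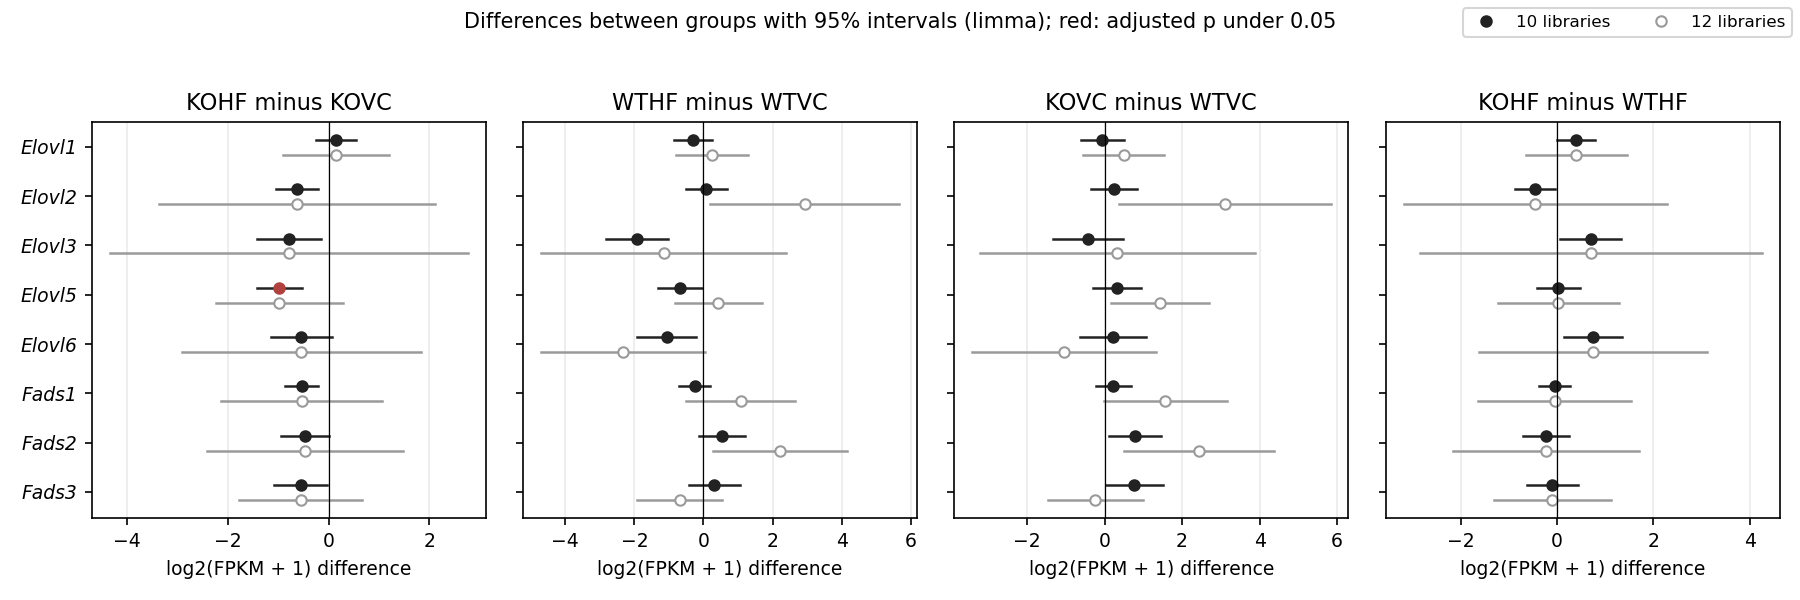
Log2(FPKM + 1) differences of the 8 genes between groups, with 95% intervals from limma, for 10 libraries (filled) and 12 libraries (open), and red for an adjusted p under 0.05. Elovl5 in KOHF minus KOVC with 10 libraries, at −0.97, is the only red point, and both comparisons with WTVC move where WTVC2 and WTVC3 are left out.

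Marker levels of other cell types also differed in this comparison. The summed level of 8 pancreatic acinar markers was 45.2 to 78.0 FPKM in KOHF, 0.357 to 0.736 FPKM in KOVC, 0.481 to 0.733 FPKM in WTHF and 0 to 5.03 FPKM in WTVC. All 8 acinar markers rose from KOVC to KOHF, beside 1.52% of all genes with 10 libraries and 0.155% with 12. From WTHF to KOHF all 8 rose too, beside 0.18% of all genes with 10 libraries and 0.155% with 12. Heart and skeletal muscle markers summed to 0.120 to 0.314 FPKM in KOHF and to 5.81 to 21.1 FPKM in KOVC, and 1 of 7 tested fell with 10 libraries. Skin and sebaceous markers summed to 2.49 to 3.23 FPKM in KOHF and to 6.88 to 12.2 FPKM in KOVC, and 2 of 6 tested fell with 10 libraries. Of all genes 6.24% fell in that fit. Kupffer cell and macrophage markers summed to 102 to 187 FPKM in KOHF and to 60.3 to 100.1 FPKM in KOVC, with 7 of 8 higher by mean and 0 past the threshold. Adipocyte markers summed to 13.4 to 57.0 FPKM in KOHF and to 11.9 to 18.5 FPKM in KOVC. Of these, 6 of 7 tested were higher by mean and 0 passed. Endothelial markers summed to 38.6 to 42.6 FPKM in KOHF and to 36.9 to 57.6 FPKM in KOVC. Of these, 1 was higher and 5 were lower by mean, and 0 passed. Hepatocyte markers summed to 33411 to 48411 FPKM in KOHF and to 41416 to 41624 FPKM in KOVC. The part of these shifts in the differences above was not tested. In bulk samples fewer cells of a type and less RNA per cell cannot be told apart.

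In wild type the diet comparison rests on WTVC, so WTVC1 alone is the control once the libraries that stand apart are left out. Elovl3 was lowest in WTHF, with 13.9, 9.19 and 19.3 FPKM against 54.1 FPKM in WTVC1. All 3 WTHF libraries lay below that single value, with a log2 difference of −1.92 (SE 0.40, adjusted p = 0.910). Elovl6 held 2.10, 5.17 and 3.18 FPKM in WTHF and 8.03 FPKM in WTVC1, a log2 difference of −1.07 (SE 0.38, adjusted p = 1). Elovl5 held 63.8, 79.9 and 106 FPKM in WTHF and 131 FPKM in WTVC1, a log2 difference of −0.68 (SE 0.28). These 3 are the members at an unadjusted p under 0.05, where 2.38% of all genes were, and 0 of 8 passed the adjusted test, as did 0.00816% of all genes.

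Fads2 went the other way in wild type. It held 171, 232 and 234 FPKM in WTHF and 144 FPKM in WTVC1, so each WTHF library lay above that single control. WTVC2 and WTVC3 held less, 90.9 and 6.23 FPKM, but these are the libraries that stand apart. In WTVC3 the 8 hepatocyte markers summed to 18.97 FPKM. The separation with all 12 libraries uses these libraries as controls too, and the part of their cell types in it was not tested. The log2 difference of Fads2 was 0.54 (SE 0.30) with 10 libraries and 2.20 (SE 0.88, limma adjusted p = 0.319) with 12. Of the 8 members it is the single one whose WTHF libraries all exceeded the 3 WTVC libraries, as 6.82% of all genes did (4.35% lay below, and 11.2% did not overlap either way). Against WTVC1 alone, WTHF lay above for 2 of 8 and below for 5 of 8, and for 24.4% and 21.5% of all genes, 45.9% in all. Elovl2 held 110.3, 137 and 95.3 FPKM in WTHF around the 107 FPKM of WTVC1, Fads1 held 125, 135 and 118 FPKM below the 151 FPKM of WTVC1, and Elovl1 held 12.4, 11.5 and 15.8 FPKM below 16.4 FPKM. Fads3 held 4.08, 5.55 and 4.84 FPKM against 3.66 FPKM. With 12 libraries 0 of 8 members passed in this comparison by limma or limma-voom, 2 (Elovl2 and Fads2) had an unadjusted p under 0.05, and of all genes 0% and 14.7% did so.

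The level of Fads2 relative to Fads1 (a ratio of FPKM) was 0.953 in WTVC1, 1.36 to 1.98 in WTHF, 1.22 to 1.75 in KOVC and 1.17 to 1.92 in KOHF. Only in the WTVC libraries was Fads1 above Fads2 by FPKM. The neighbouring genes Fads3 and Fads2 are 4492 bases apart on chromosome 19, on opposite strands, and Fads1 lies 81384 bases beyond Fads2. Whether the counting used strand is not given in the sources used here, but no gene of the table overlaps Fads1, Fads2 or Fads3. Among the 8 members Elovl1 alone overlaps another gene of the table, by 53 bases with Cdc20 on the opposite strand.

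Between genotypes on chow, the 3 KOVC libraries lay above WTVC1 for 6 of 8 genes (Elovl2, Elovl5, Elovl6, Fads1, Fads2 and Fads3), as they did for 34.3% of all genes. They lay below it for 1 (Elovl3), as for 17.8% of all genes, 52.1% in all. For Elovl2 the margin was small, with KOVC2 at 107.04 FPKM and WTVC1 at 106.69 FPKM, and other scaling can reverse it. The largest differences by log2 were those of Fads2, at 0.78 (SE 0.30), and Fads3, at 0.77 (SE 0.33). Both had an adjusted p of 1 with 10 libraries, and 0 of 8 members passed, with 2 at an unadjusted p under 0.05, where 0.00816% and 2.8% of all genes were. With 12 libraries the log2 differences of Elovl2, Fads2, Fads1 and Elovl5 were 3.10, 2.44, 1.56 and 1.43, and for these 4 genes all KOVC libraries lay above all WTVC libraries, as 12.4% of all genes did (4.43% lay below, and 16.8% did not overlap either way). None of the 8 passed (lowest adjusted p 0.196, for Fads2) by limma or by limma-voom, 3 had an unadjusted p under 0.05, and of all genes 0% passed and 21.1% had such a p. When WTVC1 was left out, so that WTVC2 and WTVC3 were the controls, Elovl2 (log2 difference 4.52, adjusted p = 0.0106), Elovl5 (1.98, 0.0217), Fads1 (2.23, 0.0382) and Fads2 (3.27, 0.0178) passed, and so did Elovl2 (4.36, 0.0143) and Fads2 (3.03, 0.0279) between WTHF and WTVC. In that fit 24.3% and 19.9% of all genes passed in these comparisons. The levels of WTVC2 and WTVC3, with their marker sums, stand beside these values, and the part of the cell types in them was not tested.

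Between genotypes on a high fat diet no WTVC library enters the difference. Elovl2 was the member whose KOHF libraries, at 78.5 to 84.6 FPKM, all lay below the WTHF libraries, at 95.3 to 137 FPKM, as was so for 12.4% of all genes. No member lay wholly above, as 7.37% of all genes did (19.8% did not overlap either way). The log2 difference was −0.45 (SE 0.18, 95% interval −0.87 to −0.036, adjusted p = 0.386 with 10 libraries). Elovl6 had the highest positive difference, 0.75 (SE 0.27, adjusted p = 0.369), with group means of 6.42 ± 1.91 and 3.48 ± 1.56 FPKM (SD, n = 3) and overlap. Elovl3 differed by 0.70 (SE 0.28, adjusted p = 0.381), with means of 23.5 ± 8.13 and 14.1 ± 5.08 FPKM and overlap. Elovl5 had nearly equal means, 83.1 and 83.1 FPKM, with an interval of −0.41 to 0.47 on the log2 scale, and Fads1 had an interval of −0.37 to 0.27. Here 0 of 8 members passed by limma and limma-voom, and 4 (Elovl1, Elovl2, Elovl3 and Elovl6) had an unadjusted p under 0.05. Of all genes 0.18% passed and 12.5% had such a p. With 12 libraries 0 of 8 members passed or had such a p, beside 0.155% and 1.27% of all genes.

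The diet differences in the 2 genotypes were set against each other as an interaction, the difference of the log2 differences, KO minus wild type. With 10 libraries Elovl3 had 1.13 (SE 0.49, adjusted p = 0.485) and Fads2 had −1.01 (SE 0.36, adjusted p = 0.463). Elovl3 was lower on high fat in both genotypes, by less in KO, while Fads2 was lower in KO and higher in wild type. These 2 are the members at an unadjusted p under 0.05, as 10.2% of all genes were. No member passed with 10 or with 12 libraries, by limma or limma-voom, where 0.0816% and 0.122% of all genes did. With 12 libraries 0 members had an unadjusted p under 0.05, beside 16.6% of all genes.

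WTVC3 had the highest level of the 12 for Elovl3 (525 FPKM), Elovl6 (219.9 FPKM) and Fads3 (27.5 FPKM), which are 9.71, 21.4 and 3.35 times the highest of the 10 libraries. It had the lowest level for Elovl2 (0.0798 FPKM, 5 reads), Fads2 (6.23 FPKM), Fads1 (12.3 FPKM) and Elovl1 (3.55 FPKM), while Elovl5, at 86.3 FPKM, lay within the range of the 10. WTVC2 differed in another way. Elovl3 was at 0.178 FPKM there (5 reads), Elovl5 at 19.1 FPKM, Elovl2 at 27.7 FPKM and Fads2 at 90.9 FPKM, each below the lowest of the 10 libraries, and Elovl1, at 20.4 FPKM, was just above the highest. Elovl6, Fads1 and Fads3 lay within the range of the 10. The adipocyte markers of WTVC3 included Ucp1, the uncoupling protein of brown fat, at 2339 FPKM and Fabp4 at 8367 FPKM. In WTVC2, Ucp1 was among 4 of the 8 adipocyte markers at 0, while Cidea stood at 41.7 FPKM and Fabp4 at 78.6 FPKM. The highest values of Cidea and Fabp4 in the other 10 libraries were 2.27 and 45.5 FPKM. Plin1 and Pparg in WTVC2 lay within the range of those 10.

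**Figure D3:**
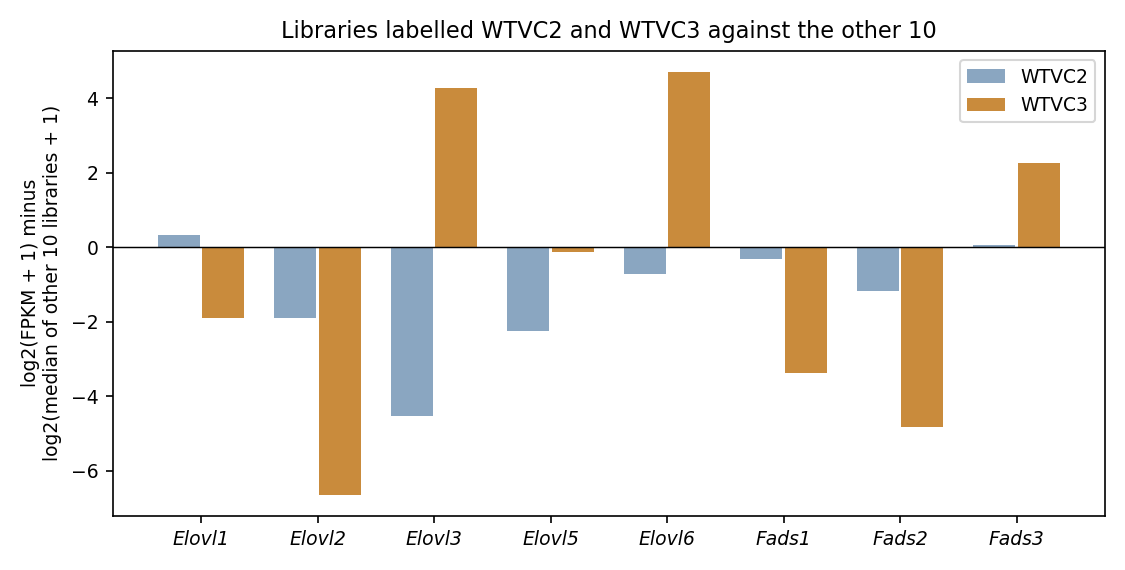
Level of each gene in WTVC2 and WTVC3 relative to the median of the other 10 libraries, as a difference of log2(FPKM + 1). In WTVC3 Elovl3 stood 4.27 and Elovl6 4.70 above that median and Elovl2 6.64 below it (−6.64), and in WTVC2 Elovl3 stood 4.53 below it (−4.53).

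The rest of the pathway was read in KOHF against KOVC with 10 libraries, from lists chosen with earlier results known. A list named for malonyl-CoA and palmitate supply held 12 genes. It included the acyl-CoA synthetases Acsl1, Acsl3, Acsl4 and Acsl5, which act on fatty acids already made. Of these 12 genes, 4 fell and 0 rose, with a median of −0.65, where 6.24% of all genes fell. None of the 4 passed in the fit of 9 libraries, also without KOHF1. They are Fasn, the fatty acid synthase (30.4, 43.9 and 30.7 FPKM in KOVC, 20.1, 10.2 and 19.5 FPKM in KOHF, log2 difference −1.07), Acss2, which makes acetyl-CoA from acetate (−0.95), and the acyl-CoA synthetases Acsl4 (−0.81), which prefers arachidonic acid, and Acsl5 (−0.56). Acsl4 held 14.1, 18.1 and 14.1 FPKM in KOVC and 8.69, 9.02 and 7.42 FPKM in KOHF. Their adjusted p ran from 0.0306 (Acsl4) to 0.0471 (Acsl5).

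Of 10 other desaturases and electron carriers, 8 were tested, 2 fell and 0 rose, with a median of −0.37, beside 6.24% of all genes that fell. With 9 libraries neither passed. Scd1, which puts the first double bond into stearate, held 682, 977 and 346 FPKM in KOVC and 223, 235 and 161 FPKM in KOHF (log2 difference −1.59, SE 0.34, adjusted p = 0.0371). Cyb5b, an outer-mitochondrial-membrane cytochrome b5, held 129, 125 and 114 FPKM and 77.8, 82.7 and 75.0 FPKM (−0.64, adjusted p = 0.0408). Cyb5a, the microsomal cytochrome b5 that passes electrons to the desaturases, had means of 730.4 and 886 FPKM and did not pass.

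The other enzymes of the elongation cycle, with the elongases Elovl4 and Elovl7, made a list of 8 genes, of which 6 were tested and 0 passed, with a median of 0.13. Without KOHF1 (9 libraries) that median was −0.094, beside −0.13 over all genes and −0.66 over the 8 members. Tecr, the last reductase of the cycle, had means of 143 and 135 FPKM, Hsd17b12, the first reductase, of 76.9 and 62.9 FPKM, and the dehydratase Hacd3 of 80.9 and 76.5 FPKM. Elovl7, another elongase, was at 3.73 FPKM in KOHF1 and 6.95 FPKM in WTVC2 and at 0.0631 to 0.216 FPKM in the other 10 libraries. Elovl4, the elongase of the longest chains, stayed at or below 0.371 FPKM except at 1.21 FPKM in WTVC3, and was not tested. Of 7 peroxisomal genes that carry out the last, chain-shortening step of DHA synthesis, 0 passed, with a median of −0.22. Of 8 acyltransferases in a list named for putting polyunsaturated chains into phospholipid, 5 were tested and 0 passed, with a median of −0.11. Not all of them are particular to such chains.

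Of 13 regulators of the family 3 fell and 0 rose, with a median of −0.29, and again 6.24% of all genes fell. The 3 did not pass with 9 libraries. Ppara held 37.1, 35.6 and 21.9 FPKM in KOVC and 5.91, 19.7 and 9.94 FPKM in KOHF (−1.45, SE 0.36, adjusted p = 0.0459). Srebf2, the SREBP of sterol synthesis, fell by 0.80 (adjusted p = 0.0439) and Scap, the escort protein of the SREBPs, by 0.62 (adjusted p = 0.0482) on the log2 scale. Srebf1, which encodes SREBP-1c, had means of 92.1 ± 30.2 and 109.9 ± 44.7 FPKM (SD, n = 3) and did not pass. Of 12 clock genes, listed because liver lipid genes follow the time of day, 11 were tested, 2 fell and 0 rose, with a median of −0.41, against 6.24% of all genes, and neither passed with 9 libraries. Nr1d2 fell by 0.80 (adjusted p = 0.0371) and Clock by 0.73 (adjusted p = 0.0480). The time of sampling is not given in the sources used here. In the fit of 9 libraries, also without KOHF1, 0 genes of these 7 lists passed and 0.318% of all genes did.

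**Figure D4:**
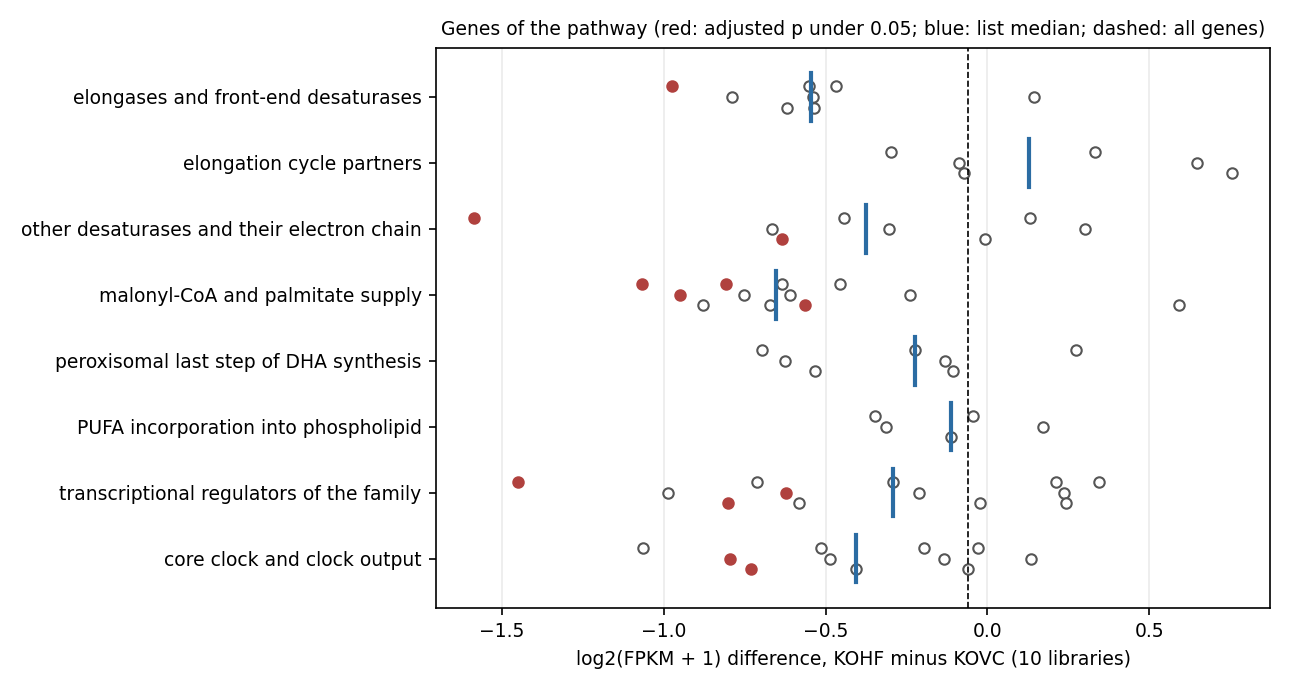
Log2(FPKM + 1) difference, KOHF minus KOVC with 10 libraries, of each tested gene of the 8 members and of 7 pathway lists, with blue bars at list medians and a dashed line at the median of all genes, −0.06. The members' median is −0.55, that of malonyl-CoA and palmitate supply, a list that includes acyl-CoA synthetases, is −0.65, and that of the elongation partners is 0.13.

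Likeness of pattern was measured as Pearson's r of log2(FPKM + 1) over the 10 libraries, which share groups and scaling, so r is a description. Among members the highest was Elovl5 with Fads1 (r = 0.82), then Elovl3 with Elovl5 (0.78) and Elovl6 with Fads1 (0.77). Fads1 and Fads2 had r = 0.39, and Elovl1 with Elovl2 had −0.66. Of 9585 candidate genes the most like Elovl5 were Sptlc1 (0.97), Fzd7 (0.97) and Cmtm6 (0.96). Elovl6 was most like Fasn (0.90), Bag3 (0.90) and Mvd (0.89), and Elovl3 had Cyp2b10 (0.92) and Tmem50b (0.90) among its 3 most like genes. For Fads1 they were Clcn4-2 (0.95), Naa25 (0.94) and Tmem41b (0.94), and for Fads2 Plekha8 (0.90), Ppp4r1 (0.90) and Tspan31 (0.89). Elovl2 was followed by Pvrl3 (0.96), Papd7 (0.94) and Xpnpep3 (0.94), Elovl1 by Ggh (0.93), Mup18 (0.88) and Pnpla7 (0.87), and Fads3 by Zfp141 (0.93), Ddah1 (0.89) and Rnf41 (0.88).

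The other members are placed as follows in the deposited table on GRCm38 (mm10), and all are protein-coding. Elovl1 (ENSMUSG00000006390) is on chromosome 4 from 118428093 to 118432953, plus strand, and Elovl2 (ENSMUSG00000021364) on chromosome 13 from 41182495 to 41220405, minus strand. Elovl3 (ENSMUSG00000038754) is on chromosome 19 from 46131897 to 46135307, plus strand, and Elovl6 (ENSMUSG00000041220) on chromosome 3 from 129532386 to 129638495, plus strand. On chromosome 19, Fads3 (ENSMUSG00000024664) spans 10041548 to 10059671, plus strand, Fads2 (ENSMUSG00000024665) spans 10064164 to 10101503, minus strand, and Fads1 (ENSMUSG00000010663) spans 10182888 to 10196870, plus strand.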

How the data were processed

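The authors deposited 1 table of FPKM for 35275 genes in 12 libraries, with gene length and coordinates per the file headers. The submitters' processing notes name GRCm38 and mm10 as builds and list HTSeq 0.6.1, TopHat, STAR, CASAVA and DESeq2, the last with version 2. The annotation release, the strand setting and the aligner behind these values were not given in the sources used here. All 12 columns were mapped by sample titles, and 0 were left over.

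The members and lists were chosen with earlier results of these data known. FPKM times gene length gave whole reads for 100% of values (tolerance 0.1 of a read), and no pair of libraries of a group agreed within counting noise (chi-square per gene, on average, 39.2 to 1340). Symbols that had become dates, 27 in all, were restored from the identifiers, of which 34490 matched a table of names. Values were taken as log2(FPKM + 1), which understates the change of low genes. The 12251 genes with a mean of at least 0.5 FPKM entered 1 limma 3.58.1 fit (R 4.3.3, empirical Bayes with a trend) of 4 group means, with 5 contrasts, Benjamini-Hochberg adjustment over all genes and a threshold of 0.05. The fit was run on simulated data for the 10 libraries only, with the same biological spread for every gene and no outlying library. That does not test the fit of 12 libraries. All 8 members were named, with members of each list past the threshold or up to 4 by mean FPKM, and for each member the 3 genes of highest Pearson's r among those with a mean of at least 1 FPKM, without predicted genes and pseudogenes. Cyb5a, Srebf1, Elovl4 and Elovl7 were added after their values were seen. Some genes that this rule names are not reported here.

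Alternatives covered the pseudocount (0.1), the filter (none, or 2 FPKM), TPM and median-of-ratios scaling, which libraries were fitted, the replicate number as a block, weights for libraries and limma-voom on recovered reads. TPM and median-of-ratios scaling with 10 libraries were chosen after seeing the data. Plots used matplotlib 3.10.9 (Python 3.11.15).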

Additional observations from a re-analysis of the deposited data

Results flagged for a closer look

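For 2 genes the groups moved wholly in opposite directions with all 12 libraries. Fads2 was higher in every WTHF library than in every WTVC library and lower in every KOHF library than in every KOVC library, and the difference between these diet effects was −2.67 on the log2 scale (limma adjusted p = 0.302, and −1.01 with adjusted p = 0.463 without WTVC2 and WTVC3). Of all 12251 genes, 1.85% separated in these directions and 2.47% in opposite directions either way. Elovl2 was higher in every KOVC library than in every WTVC library and lower in every KOHF library than in every WTHF library, with a difference of −3.55 (adjusted p = 0.317, and −0.70 with adjusted p = 0.491 without WTVC2 and WTVC3). Of all genes 3.28% separated in these directions and 3.85% either way. The separation of Elovl2 on chow rests on KOVC2 at 107.04 FPKM against WTVC1 at 106.69 FPKM. Division by their median-of-ratios scaling factors, 1.12 and 0.988, puts KOVC2 below WTVC1. Neither the difference of Fads2 nor that of Elovl2 between effects passed the test, and both rest on the WTVC libraries.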

How the results depend on the processing

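Of 1322 alternative values, 1261 kept their direction and side of the threshold, 38 changed direction, 14 gained a call and 9 lost one. The 10-library fit also without KOHF1 is repeated in these counts. All 9 lost calls are that of Elovl5 in KOHF against KOVC with 10 libraries, which 6 alternatives kept. No other member was called in the main fits, so nearly all the values that kept their side are not calls. The interaction with 12 libraries is counted there for Elovl2 and Fads2 only. Leaving out a library outside the groups compared cannot change a difference, only its p, so part of this agreement was fixed in advance. Leaving out WTVC2 and WTVC3 reversed KOVC against WTVC for Elovl1 (−0.054), Elovl3 (−0.43), Elovl6 (0.22) and Fads3 (0.77), and WTHF against WTVC for Elovl1 (−0.31), Elovl5 (−0.68), Fads1 (−0.26) and Fads3 (0.31), all log2 differences. It also turned the interaction of Elovl1 from −0.098 to 0.45 and that of Fads3 from 0.14 to −0.87, with no call in either fit. Library weights gave Fads3 0.29 in KOVC against WTVC and Elovl1 −0.19 in WTHF against WTVC. TPM gave Elovl5 −0.090 in KOHF against WTHF and Elovl1 −0.040 in KOHF against KOVC with 10 or 12 libraries, and Elovl1 0.035 in KOVC against WTVC with 10. The count of members past the threshold in KOHF against KOVC, 0 with 12 libraries, was 1 without WTVC2 and WTVC3 and 3 with library weights (Elovl5, Fads1 and Fads3, beside 19.8% of all genes). From 1 with 10 libraries it went to 0 without KOHF1, 0 with the replicate block and 4 with TPM (18.2% of all genes). The cause was not tested.

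With each of the 12 libraries left out in turn, counts of members ran from 0 to 4 in KOVC against WTVC, 0 to 2 in WTHF against WTVC and 0 to 1 in the interaction (Elovl2), each highest without WTVC1, where 24.3%, 19.9% and 18.5% of all genes passed, and with 10 libraries from 0 to 1 in KOHF against KOVC. Log2 differences that changed sign ran, in KOVC against WTVC, from −0.20 to 0.92 (Elovl1), −2.06 to 2.34 (Elovl3), −2.08 to 0.63 (Elovl6) and −0.74 to 0.57 (Fads3). In WTHF against WTVC they ran from −0.45 to 0.66 (Elovl1), −3.55 to 0.86 (Elovl3), −0.38 to 0.98 (Elovl5), −0.019 to 1.74 (Fads1) and −1.19 to 0.11 (Fads3). In KOHF against WTHF, with 10 or 12 libraries, they ran from −0.14 to 0.22 (Elovl5), −0.13 to 0.069 (Fads1) and −0.32 to 0.023 (Fads3), and in KOHF against KOVC from −0.0022 to 0.27 (Elovl1). With 10 libraries Elovl1 ran from −0.18 to 0.092 in KOVC against WTVC and Elovl2 from −0.057 to 0.20 in WTHF against WTVC.

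The replicate numbers showed no clear pairing of the samples. Libraries with the same number had correlations of deviations from −0.19 to 0.13, and not every library was most like its own number. With 3 libraries a group, 2 of them outlying in WTVC, such correlations cannot exclude a pairing or a batch. With the replicate block 0 members passed in KOHF against KOVC, and calls over all genes there went from 19 to 17 with 12 libraries and from 951 to 31 with 10. Other counts over all genes that moved by more than 1.5 times were, in KOHF against KOVC, 3 (filter at 2 FPKM), 31 (no filter), 951 (without WTVC2 and WTVC3), 2420 (library weights) and 12 (limma-voom) from 19, and 39 (also without KOHF1) and 2231 (TPM) from 951. In KOHF against WTHF 19 became 3 with the filter at 2 FPKM and 33 with library weights. Without WTVC1 KOVC against WTVC went from 0 to 2981, WTHF against WTVC from 0 to 2435 and the interaction from 15 to 2265. The interaction also moved to 6 (pseudocount 0.1), 25 (no filter), 1 (filter at 2 FPKM), 4 (replicate block), 7 (library weights), 0 (limma-voom), 5 (without any 1 WTHF or KOVC library), 8 (without WTVC2) and 9 (without KOHF2 or KOHF3), and KOVC against WTVC moved from 0 to 4 with no filter. With 10 libraries the interaction ran from 2 to 24 around 10, KOVC against WTVC from 1 to 3 and WTHF against WTVC from 1 to 7. The interaction has no fit limited to the groups compared, since it uses all 4. Counting limits few values, since the members held at least 208 reads in each of the 10 libraries, but 3 libraries a group limit all of them.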
